A study of Rattus norvegicus with 12 samples.

Results

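The 10 genes described here, Bax, Bak1, Bcl2, Bcl2l1, Mcl1, Bcl2a1, Bcl2l11, Bbc3, Bmf and Bid, encode proteins of the BCL2 family, which set the threshold for apoptosis at the mitochondrion. They were taken by symbol from a table of 30560 genes measured in rat retina, and each of the 10 symbols matched 1 gene. The retinas came from 12 rats, sequenced as total RNA with 1 library per rat. In the NMDA group, 6 rats had received 2 µL of 20 mM NMDA in the vitreous of the eye, and in the PBS group 6 rats had received 2 µL of PBS by the same route. Every retina therefore came from an eye with an injection. The sources used here do not give strain, age, sex or the time between injection and collection. NMDA activates a class of glutamate receptors and overexcites retinal neurons, and the series is named as a rat model of glaucoma, a disease in which retinal ganglion cells die.

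BCL2 family proteins fall into 3 groups. The effectors BAX and BAK open pores in the outer mitochondrial membrane, which release cytochrome c and start the caspase cascade. The guardians BCL2, BCL-XL, MCL1 and A1 bind and restrain the effectors. The BH3-only proteins BIM, PUMA, BMF and BID carry stress signals to the other two groups by occupying the guardians or by activating the effectors. In mice, loss of BAX spares retinal ganglion cells after optic nerve injury. Many of these proteins are controlled by cleavage, location or turnover, so that a transcript level is only 1 of their layers of control.

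Library totals lay between 16415611 (PBS 3) and 34022023 (NMDA 3) counts, and all 10 genes had enough counts to be tested. Rod photoreceptors are the most abundant cells of the rat retina, and 9 rod markers together held 38450 to 54340 CPM (counts scaled to a common library total) in NMDA retinas and 53590 to 56890 CPM in PBS retinas, as a retinal label requires. On the first principal component (44.7% of the variance) all NMDA libraries had scores below those of all PBS libraries, with NMDA 1 and PBS 5 nearest to each other. On the second (15.7%) NMDA 1 scored 62.2 and NMDA 3 scored -32.5, the extremes of the 12 libraries.

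Promoter sequences are shown first, so that the letters before the starts can be set beside the values. RefSeq promoters (build GRCr8) matched 8 of the 10 genes, with 11 starts in all. The 250 bases before the start are printed 5′ to 3′ on the gene's own strand for 6 genes. Bcl2a1, Bak1 and Bcl2 share 1 motif, although Bcl2 did not pass the test. Mcl1 rose and holds other motifs, Bid rose and holds none of those searched, and Bmf fell. Capitals mark matches on either strand to GAGGAAGT (the core bound by PU.1, the myeloid factor encoded by Spi1), TGANTCA (AP-1), TGACG (the core of the cyclic AMP response element) and the kappaB consensus. The intervals are chr8:98596556-98596805 (plus strand) for Bcl2a1, chr20:5110975-5111224 (minus) for Bak1, chr13:23366901-23367150 (minus) for Bcl2, chr2:185907918-185908167 (plus) for Mcl1, chr4:155808320-155808569 (minus) for Bid and chr3:125974065-125974314 (minus) for Bmf.
Bcl2a1: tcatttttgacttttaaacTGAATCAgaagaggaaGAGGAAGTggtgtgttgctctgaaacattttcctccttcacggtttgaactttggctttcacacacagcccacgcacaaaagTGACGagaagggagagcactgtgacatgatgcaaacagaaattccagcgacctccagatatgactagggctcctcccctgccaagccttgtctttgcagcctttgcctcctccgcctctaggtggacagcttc
Bak1: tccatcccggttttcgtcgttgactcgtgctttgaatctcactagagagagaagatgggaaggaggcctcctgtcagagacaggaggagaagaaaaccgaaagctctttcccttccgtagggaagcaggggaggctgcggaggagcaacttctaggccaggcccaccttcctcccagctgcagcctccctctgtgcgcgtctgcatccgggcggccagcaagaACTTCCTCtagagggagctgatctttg
Bcl2: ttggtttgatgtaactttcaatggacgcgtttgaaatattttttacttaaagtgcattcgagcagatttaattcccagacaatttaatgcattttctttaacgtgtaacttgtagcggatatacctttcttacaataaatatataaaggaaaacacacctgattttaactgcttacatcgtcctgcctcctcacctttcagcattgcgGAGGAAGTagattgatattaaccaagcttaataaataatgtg
Mcl1: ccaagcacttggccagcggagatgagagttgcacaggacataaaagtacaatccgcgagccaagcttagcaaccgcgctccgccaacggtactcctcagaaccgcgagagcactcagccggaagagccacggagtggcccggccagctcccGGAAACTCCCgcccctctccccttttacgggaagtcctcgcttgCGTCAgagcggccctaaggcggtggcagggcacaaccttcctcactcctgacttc
Bid: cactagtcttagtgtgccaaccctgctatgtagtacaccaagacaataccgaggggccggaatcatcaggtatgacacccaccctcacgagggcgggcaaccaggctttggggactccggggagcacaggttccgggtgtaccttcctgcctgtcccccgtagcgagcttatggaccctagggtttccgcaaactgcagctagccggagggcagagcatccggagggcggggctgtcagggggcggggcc
Bmf: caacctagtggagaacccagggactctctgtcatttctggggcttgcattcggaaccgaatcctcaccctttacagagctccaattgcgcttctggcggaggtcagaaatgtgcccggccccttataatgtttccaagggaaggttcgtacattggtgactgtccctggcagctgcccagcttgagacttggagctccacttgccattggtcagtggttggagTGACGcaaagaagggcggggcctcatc

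GAGGAAGT was present before the starts of Bcl2a1, Bak1 and Bcl2, that is in 3 of the 11 windows of the 8 genes. It was present in 2.04% of all 33469 promoter windows of the same length. The motif lay 215 bases before the start of Bcl2a1, 42 before that of Bcl2 and, on the opposite strand, 27 before that of Bak1. Distances were counted from its outermost base. Bcl2a1 also held TGANTCA (6.34% of all windows), and Bcl2a1, Mcl1 and Bmf each held TGACG (18.2%). The kappaB consensus was found in Mcl1 (6.33% of all windows). The interferon response element (3.41%) was in none of the windows of the members, and TTCNNNGAA, the STAT element (7.67%), was found only in a pair of overlapping windows of Bcl2l1. None of these matches overlapped another motif's match in the same window. The motifs were chosen after the letters before Bcl2a1 had been seen, so the matches of Bcl2a1 cannot be weighed against the shares of all windows. A match describes the letters and not a bound site.

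The question was which of these genes differ in transcript level between NMDA and PBS retinas. Of the 10 genes, 6 changed (edgeR quasi-likelihood test, Benjamini-Hochberg adjusted over 16260 genes, threshold 0.05), against 37.9% of all genes tested. Bcl2a1, Bid, Bak1, Mcl1 and Bax rose (5 of 10, against 20.4% of all genes), and Bmf fell (1 of 10, against 17.5%). In 5 of the 10, those that rose, every NMDA library lay above every PBS library, against 9.43% of all genes (18.1% were separated in either direction). This count comes from the same libraries as the calls and is not independent of them. Bcl2, Bcl2l1, Bcl2l11 and Bbc3 did not pass. The median log2 fold change (NMDA minus PBS) was 0.37 over the 10 genes and 0.01 over all genes tested. Retina is a mixed tissue, so a lower transcript level from fewer cells of a type cannot be told apart from less RNA per cell, and likewise a higher one.

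**Figure D1:**
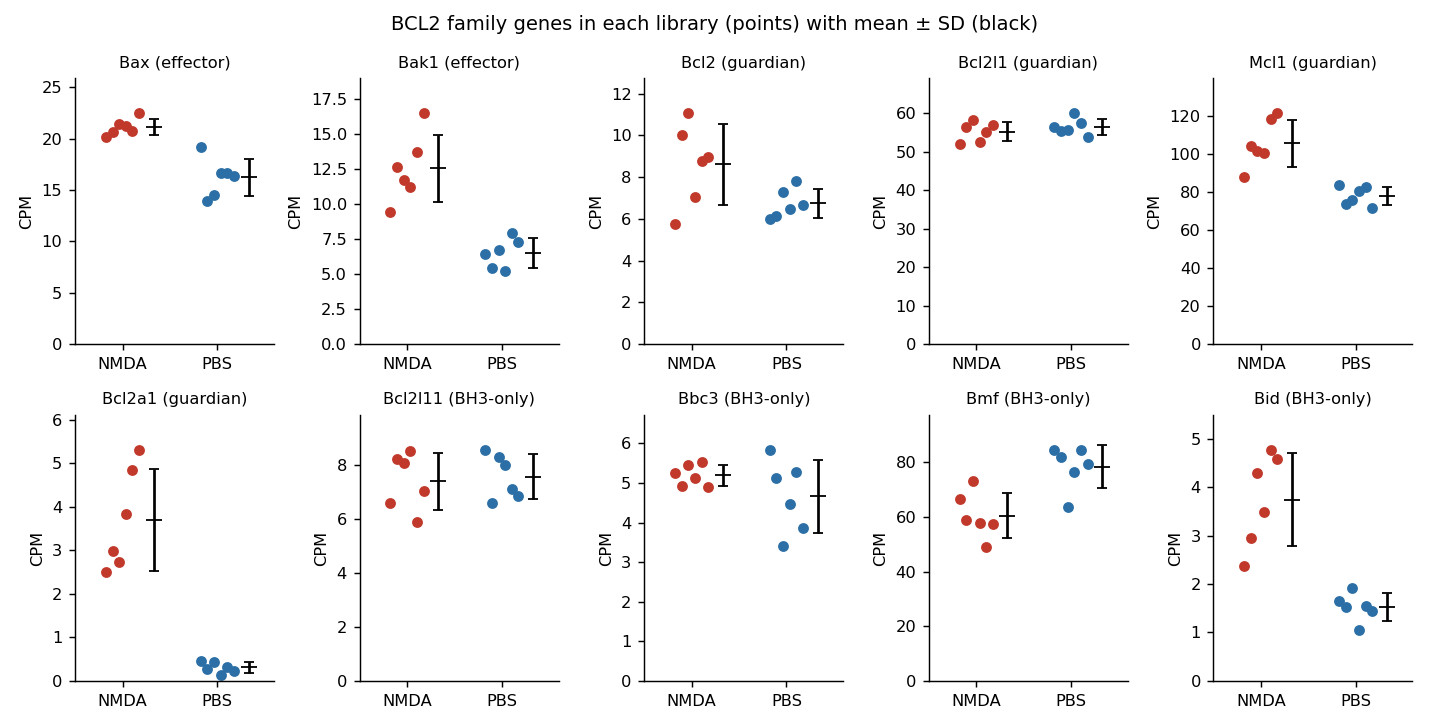
CPM (counts scaled to a common total, vertical axis, from 0) of each gene in the 6 NMDA and the 6 PBS libraries, 1 point per library, with mean ± SD in black. The groups do not overlap for Bax, Bak1, Mcl1, Bcl2a1 and Bid, and they overlap for the other 5 genes.

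Both effector genes rose. Bak1, which encodes the effector anchored in the mitochondrial membrane (ENSRNOG00000000485, chromosome 20, 5100480 to 5109264 in the authors' coordinates, genome build not given in the sources used here), had a lowest, median and highest level of 9.43, 12.2 and 16.5 CPM in NMDA retinas, against 5.22, 6.59 and 7.93 CPM in PBS retinas. The lowest NMDA library thus exceeded the highest PBS library. Its log2 fold change was 0.95 ± 0.14 (SE, n = 6 each; edgeR adjusted p = 0.000293), a 1.93-fold rise. Bax, the effector that moves from the cytosol to the mitochondrion (ENSRNOG00000020876, chromosome 1, 95938808 to 95945368), had 20.1, 21.0 and 22.5 CPM in NMDA retinas, against 14.0, 16.5 and 19.1 CPM in PBS retinas. The NMDA libraries lay close together, and PBS 1 was the PBS library nearest to them. Bax rose by a log2 fold change of 0.38 ± 0.07 (edgeR adjusted p = 0.00119), or 1.30-fold.

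The loci of both effector genes overlap others in the deposited annotation, and the strand setting of the counting is not known here. Bax shares 918 bases with Ftl1, the ferritin light chain gene, which held 82.3 ± 12.8 CPM in NMDA retinas and 53.5 ± 6.49 CPM in PBS retinas (SD, n = 6 each) and rose as well (log2 fold change 0.62, edgeR adjusted p = 0.000759). Reads of the shared stretch could belong to either gene, and their part in the rise of Bax was not tested. Bak1 lies within Ggnbp1, a gene at 0.797 ± 0.199 CPM in NMDA retinas and 0.858 ± 0.160 CPM in PBS retinas (SD, n = 6 each), far below Bak1.

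Among the guardians, Bcl2a1 changed most and Mcl1 to a lesser extent. Bcl2a1 encodes A1, a guardian of white blood cells (ENSRNOG00000047606, chromosome 8, 89716914 to 89724998), and had 2.49, 3.40 and 5.31 CPM (lowest, median and highest) in NMDA retinas, against 0.145, 0.296 and 0.462 CPM in PBS retinas. These levels rested on 65 to 153 counts per NMDA library and on 4 to 14 counts per PBS library, so the PBS level is the less precise. Every NMDA library stood well clear of the PBS libraries. The log2 fold change was 3.58 ± 0.29 (SE, n = 6 each; edgeR adjusted p = 9.63e-06), a rise of 11.97-fold that ranked 30 among the 16260 genes. On the log2(FPKM + 1) scale, which compresses low levels, it was 2.12 (limma adjusted p = 8.125e-06).

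Mcl1 encodes a guardian with rapid protein turnover (ENSRNOG00000063678, chromosome 2, 183219220 to 183222303). It had 87.9, 102.9 and 122 CPM in NMDA retinas, against 71.95, 78.1 and 84.0 CPM in PBS retinas. NMDA 1 was the NMDA library nearest to the PBS range. Mcl1 rose by 0.44 ± 0.07 on the log2 scale (edgeR adjusted p = 0.000628), or 1.354-fold.

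The other guardians did not pass. Bcl2, the founding member (ENSRNOG00000067693, chromosome 13, 22684989 to 22853743), had 5.75, 8.89 and 11.1 CPM in NMDA retinas, against 6.01, 6.57 and 7.82 CPM in PBS retinas. NMDA 3 was the highest of the NMDA libraries and NMDA 1 the lowest, and together they spanned the whole PBS range. Its log2 fold change was 0.36 ± 0.14 (edgeR adjusted p = 0.0678, 95% interval 0.05 to 0.67), and it passed without NMDA 1 (0.44, edgeR adjusted p = 0.00917). Bcl2l1, which encodes BCL-XL (ENSRNOG00000007946, chromosome 3, 141253523 to 141303479), had 52.0, 55.8 and 58.3 CPM in NMDA retinas and 53.9, 56.0 and 60.01 CPM in PBS retinas. The groups covered nearly the same range. Its log2 fold change was -0.03 (edgeR adjusted p = 0.585), with a 95% interval of -0.12 to 0.06. An unnamed gene (ENSRNOG00000005116) lies inside the Bcl2l1 locus, held 132 ± 17.2 CPM in NMDA retinas and 60.8 ± 7.59 CPM in PBS retinas (SD, n = 6 each) and rose by 1.12 on the log2 scale (edgeR adjusted p = 1.63e-05). Reads of the shared 895 bases could belong to either gene, and their part in the level of Bcl2l1 was not tested.

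The BH3-only genes went in different directions. Bid, whose protein is cleaved by caspase 8 to link death receptors to mitochondria (ENSRNOG00000012439, chromosome 4, 154113198 to 154134720), had 2.38, 3.897 and 4.77 CPM (lowest, median and highest) in NMDA retinas, against 1.05, 1.54 and 1.92 CPM in PBS retinas. The ranges did not overlap, and NMDA 1 was the NMDA library nearest to the PBS range. Bid had a log2 fold change of 1.30 ± 0.20 (SE, n = 6 each; edgeR adjusted p = 0.000310), a 2.47-fold rise, and of 0.70 on the log2(FPKM + 1) scale (limma adjusted p = 0.000388).

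Bmf, whose protein is held at the cytoskeleton by a dynein light chain (ENSRNOG00000007529, chromosome 3, 105499538 to 105520145), had 49.0, 58.4 and 73.2 CPM in NMDA retinas, against 63.6, 80.5 and 84.5 CPM in PBS retinas. The ranges overlapped through NMDA 1 and NMDA 3, the highest of the NMDA libraries, and PBS 3, the lowest of the PBS libraries. Bmf fell by 0.37 as a log2 fold change, with an SE of 0.09 (edgeR adjusted p = 0.00677).

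Bbc3, which encodes PUMA (ENSRNOG00000062473, chromosome 1, 77014543 to 77022509), had 4.89, 5.18 and 5.53 CPM in NMDA retinas, against 3.40, 4.80 and 5.84 CPM in PBS retinas. The NMDA libraries lay within the wider PBS range. Its log2 fold change was 0.15 ± 0.13 (edgeR adjusted p = 0.379, 95% interval -0.12 to 0.42), and 0.08 without PBS 3, the shallowest library and the lowest in Bbc3. Bcl2l11, which encodes BIM, a binder of all guardians (ENSRNOG00000016551, chromosome 3, 115366646 to 115404068), had 5.86, 7.56 and 8.50 CPM in NMDA retinas and 6.59, 7.54 and 8.55 CPM in PBS retinas. The medians were almost equal. The log2 fold change was -0.03 (edgeR adjusted p = 0.847), with a 95% interval of -0.27 to 0.20.

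**Figure D2:**
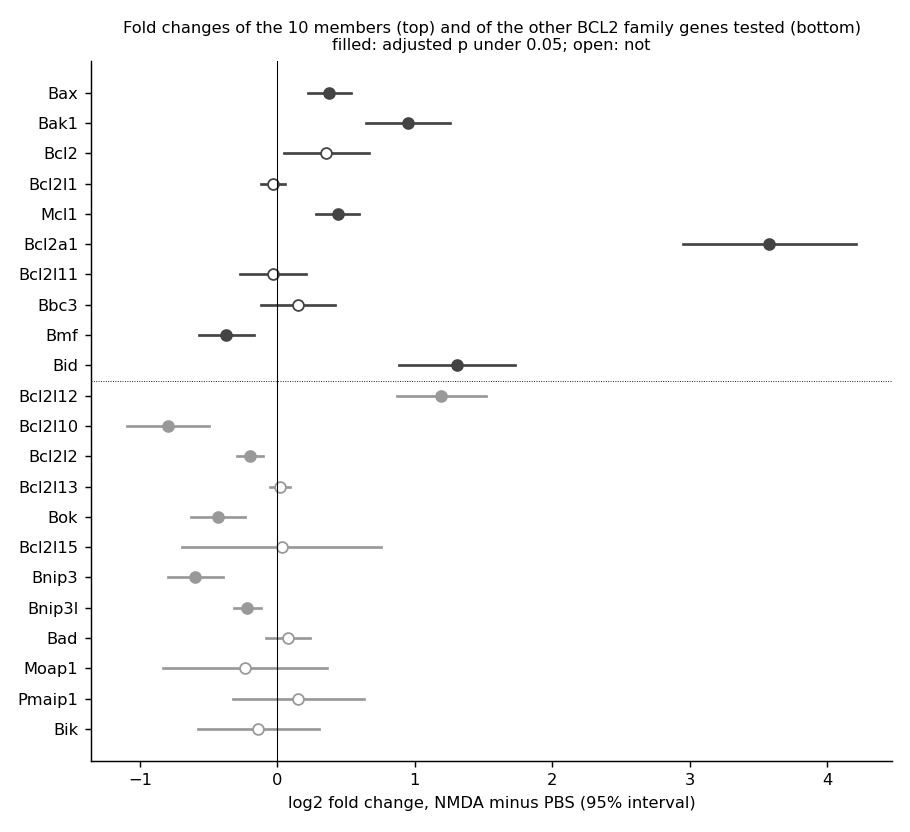
Log2 fold change (NMDA minus PBS, horizontal axis) with its 95% interval, filled where the adjusted p was under 0.05. The 10 members are in the upper part, and 12 other genes tested of the BCL2 family or listed with it are in the lower part. Bcl2a1 at 3.58 stands to the right of Bid at 1.30, and Bmf at -0.37 is the 1 filled member on the left of 0.

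Levels of different genes were compared per length, as FPKM (fragments scaled by gene length and library total). Mcl1 was the highest of the 10 genes in both groups, at 51.2 ± 6.74 FPKM in NMDA retinas and 36.5 ± 2.39 FPKM in PBS retinas (SD, n = 6 each). Bmf was second in both, at 13.1 ± 1.68 FPKM in NMDA retinas and 16.4 ± 1.63 FPKM in PBS retinas, and its range overlapped that of Bax, the third (10.8 ± 0.522 FPKM), in NMDA retinas only. In NMDA retinas Bak1 (6.16 FPKM), Bcl2l1 (6.14) and Bcl2a1 (5.39) came next with overlapping ranges, then Bbc3 (2.71), and last Bid (1.82), Bcl2 (1.09) and Bcl2l11 (1.02), again with neighbours overlapping. In PBS retinas Bax (8.02 FPKM) and Bcl2l1 (6.06) were followed by Bak1 (3.08) and Bbc3 (2.35), which overlapped, and then by Bcl2l11 (1.00), Bcl2 (0.827), Bid (0.715) and Bcl2a1 (0.434), each overlapping the next. Bcl2a1 was thus last of the 10 in PBS retinas and sixth in NMDA retinas.

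The makeup of each role differed accordingly. The 4 guardians summed to 63.8 ± 8.72 FPKM in NMDA retinas and 43.8 ± 2.64 FPKM in PBS retinas (SD, n = 6 each). Bcl2a1 made up 8.29% ± 1.71 of that sum in NMDA retinas and 0.988% ± 0.371 in PBS retinas, and Bcl2l1 9.74% ± 1.03 in NMDA retinas and 13.9% ± 0.553 in PBS retinas. Mcl1 held most of it in both groups, 80.3% ± 0.561 in NMDA retinas and 83.3% ± 0.529 in PBS retinas. The sum of these 4 is not that of all guardians. It leaves out Bcl2l2, another guardian gene, at 73.3 ± 4.34 FPKM in NMDA retinas and 81.4 ± 3.32 FPKM in PBS retinas. Bcl2l2 was thus above Mcl1 in both groups and lower with NMDA. The 2 effectors summed to 17.0 ± 1.74 FPKM in NMDA retinas and 11.1 ± 1.11 FPKM in PBS retinas, of which Bak1 made up 36.0% ± 3.74 with NMDA and 27.7% ± 3.44 with PBS. The sums of the 4 BH3-only genes overlapped, at 18.7 ± 1.68 FPKM in NMDA retinas and 20.5 ± 1.97 FPKM in PBS retinas, and Bid made up 9.84% ± 2.86 of them in NMDA retinas and 3.54% ± 0.925 in PBS retinas. These sums are given without a test.

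**Figure D3:**
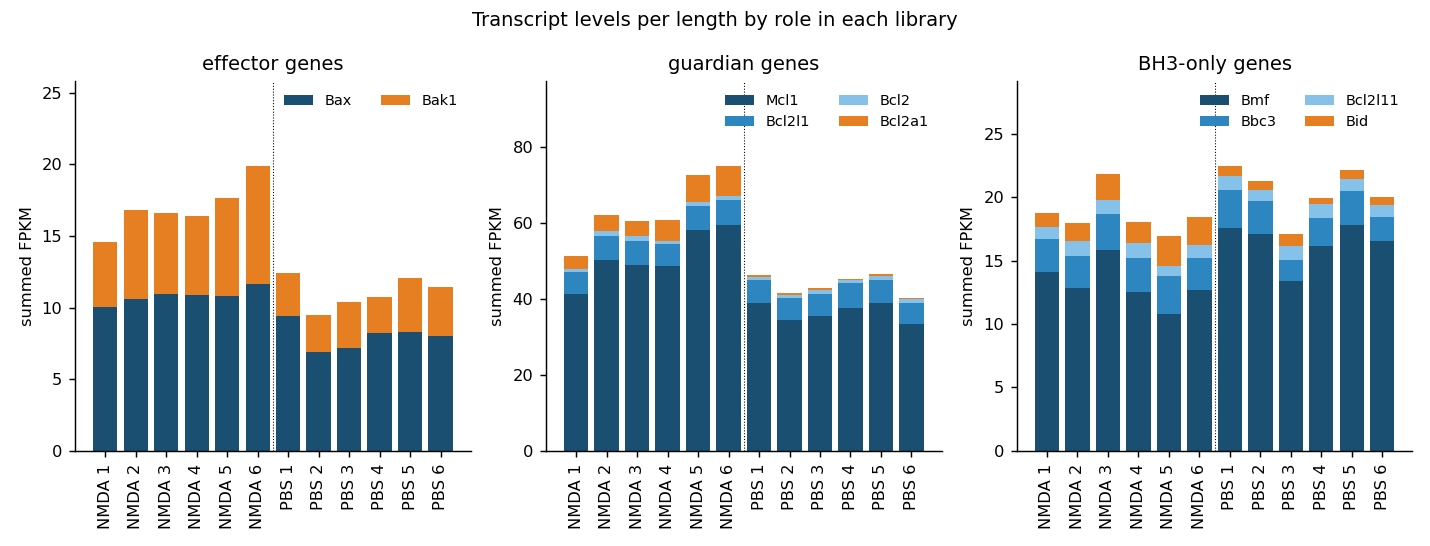
Summed FPKM (vertical axis, from 0) of the effector, guardian and BH3-only members in each library, with the share of each gene in colour. NMDA libraries are left of PBS libraries, and Bcl2l2 is not included. Mcl1 fills most of every guardian bar, and the Bcl2a1 part is visible in the NMDA libraries and thin in the PBS libraries.

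The ratio of Bax to Bcl2, often used as a summary of the balance between death and survival, did not separate the groups. As the log2 ratio of FPKM it was 3.34 ± 0.32 in NMDA retinas and 3.28 ± 0.24 in PBS retinas (SD, n = 6 each), a difference of 0.06, and the difference was -0.04 without NMDA 1, the library with the lowest Bcl2. Bax over Bcl2l1 was 0.82 ± 0.06 in NMDA retinas and 0.40 ± 0.15 in PBS retinas, and every NMDA library lay above every PBS library. The gene inside the Bcl2l1 locus and the overlap of Bax with Ftl1 bear on this ratio too. Bbc3 over Bcl2l1 overlapped, at -1.18 ± 0.10 in NMDA retinas and -1.39 ± 0.28 in PBS retinas. Bcl2a1 over Mcl1 was -3.30 ± 0.31 in NMDA retinas and -6.49 ± 0.61 in PBS retinas, with no overlap.

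**Figure D4:**
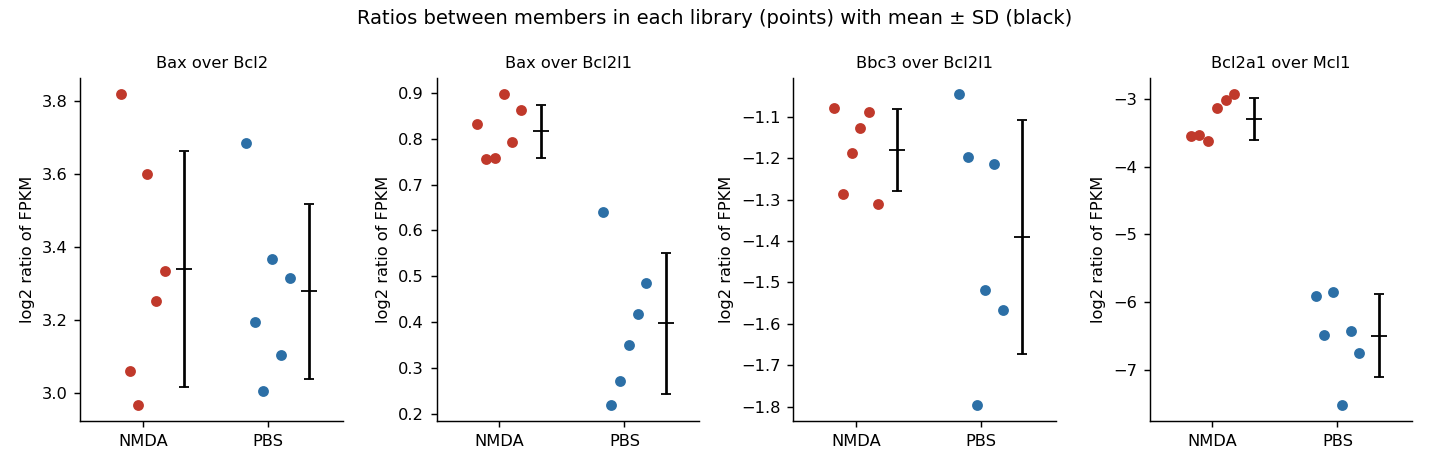
Log2 ratio of FPKM (vertical axis) for 4 pairs of members, 1 point per library, with mean ± SD in black. The groups overlap for Bax over Bcl2 and Bbc3 over Bcl2l1 and do not overlap for Bax over Bcl2l1 and Bcl2a1 over Mcl1.

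The NMDA libraries differed among themselves in a similar order for several members. NMDA 1 was the lowest NMDA library for all 5 genes that rose, and NMDA 6 was the highest for 4 of them (Bax, Bak1, Bcl2a1 and Mcl1), with NMDA 5 the highest for Bid. Bmf was lowest in NMDA 5. NMDA 1 also had the highest summed rod markers of the NMDA libraries (54340 CPM), and NMDA 6 the highest sum of neutrophil markers (51.0 CPM, against 4.83 to 20.1 in the other NMDA libraries). Without NMDA 1 and NMDA 3 together 7 members passed, with Bcl2 added, and without PBS 5 and NMDA 3 together 6 passed. The genes called in all numbered 6890 and 6146 in these fits, against 6167 with all libraries.

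Most markers of microglia and macrophages, the resident and invading phagocytes, rose, as did Bcl2a1, Bid, Bak1, Mcl1 and Bax. Of 12 markers 11 rose, against 20.4% of all genes. The median log2 fold change of the 12 was 1.72. Among those that rose were Cx3cr1, the fractalkine receptor gene (1.16), Tyrobp, a signalling adaptor gene (2.31), Cd14, a lipopolysaccharide receptor gene (3.07), and Cd68, a lysosomal protein gene (2.85). Fcer1g, the 1 that did not pass and chosen after its values were seen, varied widely, at 47.8 ± 25.1 CPM in NMDA retinas and 49.9 ± 30.6 CPM in PBS retinas (SD, n = 6 each). The 12 markers summed to 141 to 352 CPM in NMDA retinas and 75.4 to 182 CPM in PBS retinas. Without Fcer1g the other 11 summed to 118 to 270 CPM in NMDA retinas and 60.7 to 90.8 CPM in PBS retinas, a ratio of means of 2.53, and no marker was at 0.

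The levels of Bcl2a1, Bid and Bak1, the 3 members with the largest rises, were also set against the 11 markers. Bcl2a1 had 20.3 ± 2.99 CPM per 1000 CPM of these markers in NMDA retinas and 4.21 ± 1.37 in PBS retinas (SD, n = 6 each), a ratio of 4.82 with no overlap between groups. With all 12 markers, Fcer1g included, that ratio was 6.15, also with no overlap. Bid had 21.0 ± 4.61 per 1000 in NMDA retinas and 21.2 ± 3.54 in PBS retinas, and Bak1 had 71.7 ± 18.5 in NMDA retinas and 90.7 ± 14.8 in PBS retinas, and both overlapped. The ratio of NMDA to PBS was 0.990 for Bid and 0.790 for Bak1 with the 11 markers, against 1.28 for Bid and 1.01 for Bak1 with all 12, so the direction turned for both with the choice of markers. The part of the phagocyte markers in the rises of these genes was not tested.

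**Figure D5:**
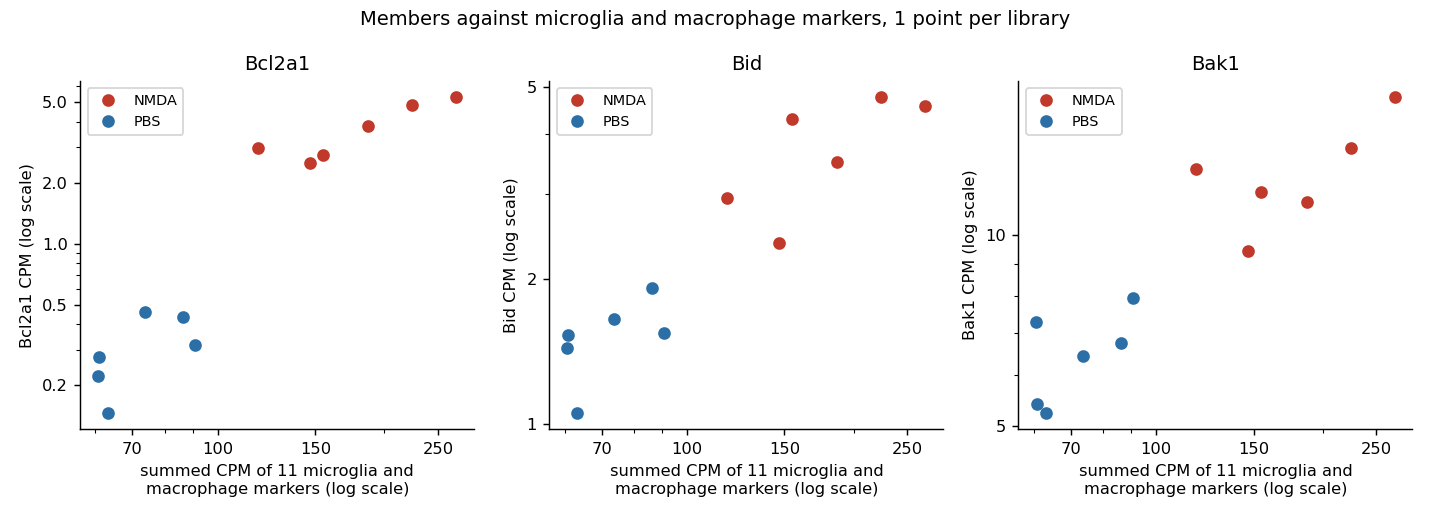
CPM of Bcl2a1, Bid and Bak1 (vertical, log scale) against the summed CPM of 11 microglia and macrophage markers (horizontal, log scale), 1 point per library. The NMDA libraries lie to the upper right of the PBS libraries in all 3 panels, with the largest vertical gap for Bcl2a1. Fcer1g was left out of the sum after its values were seen, and with it included the sums of the groups overlap. The 3 genes are those with the largest rises, so the vertical separation repeats their calls.

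Other white blood cell markers were scarce. All 3 tested neutrophil markers of 6 rose, against 20.4% of all genes. Mmp9, a matrix protease gene, rose by 1.89, Csf3r, a growth factor receptor gene, by 2.68 and S100a9, a calprotectin gene, by 4.08 on the log2 scale. S100a9 did not pass without NMDA 6 (2.66, edgeR adjusted p = 0.0552). The 6 summed to 4.83 to 51.0 CPM in NMDA retinas and 1.55 to 5.51 CPM in PBS retinas, with Mpo at 0 in all NMDA libraries and Elane at 0 in all PBS libraries. Of 7 lymphocyte markers 4 were tested, of which 2 rose and 1 fell, against 20.4% and 17.5% of all genes. Those that rose were Cd8a, a T cell co-receptor gene (5.19), and Cd3e, a T cell receptor gene (2.01). Cd3e did not pass without NMDA 6, PBS 1, PBS 2, PBS 4 or PBS 6 (edgeR adjusted p up to 0.0560), and its log2 fold change was 3.20 without PBS 5, the highest PBS library. The lymphocyte markers summed to 4.11 to 8.43 CPM in NMDA retinas and 2.85 to 4.88 CPM in PBS retinas, with Ms4a1 at 0 in all PBS libraries.

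Ganglion cell markers moved the other way. Of 12 markers 10 fell and none rose, against 17.5% and 20.4% of all genes. The median log2 fold change of the 12 was -1.30. Stmn2, a microtubule regulator gene, Nefh and Nefl, neurofilament genes, and Thy1, a surface glycoprotein gene, were at -0.93, -0.79, -1.48 and -1.28. The sum of the 12 markers was 298 to 693 CPM in NMDA retinas and 969 to 1170 CPM in PBS retinas. It was highest among NMDA retinas in NMDA 3 and NMDA 1, which were also the NMDA libraries highest in Bmf. That order was not particular to ganglion cell markers. NMDA 3 and NMDA 1 were also the highest NMDA libraries for amacrine cell markers (1372 and 1280 CPM). The same held for markers of Müller glia, the support cells of the retina (3779 and 3401 CPM). Of 9 rod markers 6 fell and none rose (median -0.40), against 17.5% and 20.4% of all genes. Rom1 and Prph2, outer segment genes, were at -0.51 and -0.38, and Pde6b and Gnat1, phototransduction genes, at -0.40 and -0.50. The part of the neuronal and glial markers in the fall of Bmf was not tested.

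For each of the 6 genes that changed, the 3 genes with the most similar profile were found by the root mean square difference of log2 CPM, centred on the PBS mean, over the 12 libraries. The nearest to Bcl2a1 were Pdpn, Ccnd1 and Lrrc15, at 0.47 to 0.51, a wide distance. Genes at a mean log2 CPM under 1 were left out, including any at the low level of Bcl2a1 itself. Its PBS levels rest on only 4 to 14 counts, which adds to its distances. Dock8, Cd33 and Myd88 were nearest to Bid (0.21 each), and Nek6, Id1 and Tax1bp3 to Bak1 (0.15 each). The profiles closest to Bax were those of Ets2, Cdk4 and Aida (0.09 each), those closest to Mcl1 were B4galt5, Marcks and Prdx1 (0.08 each), and those closest to Bmf were Auts2l1 (0.07), Adcy5 and Cep170b (0.08 each).

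Of 12 further genes tested that belong to the BCL2 family or were listed with it, 1 rose and 5 fell, against 20.4% and 17.5% of all genes. Of 4 other genes listed with the guardians, not all of them known to restrain the effectors, Bcl2l12, a BCL2-like gene, rose by 1.19 ± 0.15 on the log2 scale (edgeR adjusted p = 0.000121). Bcl2l12 had 2.41 ± 0.362 CPM in NMDA retinas and 1.05 ± 0.148 CPM in PBS retinas (SD, n = 6 each). Bcl2l10 fell by 0.79 and Bcl2l2, which encodes the guardian BCL-W, by 0.20 (edgeR adjusted p = 0.000745 and 0.00346), and Bcl2l2 was the most counted of the 4, at 265 ± 15.3 CPM in NMDA retinas and 305 ± 12.6 CPM in PBS retinas. Of 2 further effector-type genes tested, Bok fell by 0.43 (edgeR adjusted p = 0.00238). Of 6 further genes tested that were listed with the BH3-only genes, Bnip3 and Bnip3l, whose proteins also act as receptors for the removal of mitochondria, fell by 0.60 and 0.22 (edgeR adjusted p = 0.000384 and 0.00253). Bad, Bik, Pmaip1 and Moap1, chosen after their values were seen, did not pass (log2 fold changes between -0.24 and 0.15).

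Of 16 genes that act at or after the mitochondrial step, or bear on it, 4 rose and 2 fell. Their median log2 fold change was -0.04. The share that changed was close to the 37.9% of all genes. Htra2, a protease released from mitochondria, rose by 0.22 on the log2 scale (edgeR adjusted p = 0.0128). Xiap, the caspase inhibitor gene, fell by 0.42 and Vdac1, a channel gene of the outer membrane, by 0.20.

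Genes that feed the BH3-only proteins and effectors gave 3 rises and 4 falls among 17 tested (median -0.08). Of all genes tested, 20.4% rose and 17.5% fell. Jun, an AP-1 subunit gene and target of the JNK pathway, rose by 0.67 on the log2 scale, and Casp8, whose protein cleaves BID, by 1.399. Casp8 was low, at 1.55 ± 0.597 CPM in NMDA retinas and 0.582 ± 0.132 CPM in PBS retinas (SD, n = 6 each). Dynll2, the dynein light chain gene whose protein holds BMF, fell by 0.26 on the log2 scale (edgeR adjusted p = 0.000709).

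Genes upstream of the guardians rose in 9 of 12 cases, against 20.4% of all genes, and fell in none. Their median log2 fold change was 0.68. Spi1, which encodes PU.1 and is also counted among the microglia and macrophage markers, rose by 2.13, Nfkb2, an NF-kB subunit gene, by 1.17, Stat3, a cytokine signal transducer gene, by 1.20 and Atf5, a leucine zipper factor gene, by 0.94 (edgeR adjusted p at most 0.000489). For these 4 the groups did not overlap. They were picked for the smallest adjusted p in the same libraries, so this cannot be weighed against the share of all genes. Among the other genes of the list that rose, some overlapped. Of 10 genes that control MCL1 turnover, 2 rose and 2 fell (median -0.02), against 20.4% and 17.5% of all genes. Fbxw7, a ubiquitin ligase subunit gene, rose by 0.23 and Usp13, a deubiquitinase gene, fell by 0.27. Gsk3b, a kinase gene (-0.10, edgeR adjusted p = 0.0308), and Cdc20, an activator gene of a ubiquitin ligase (0.29, edgeR adjusted p = 0.0381), passed as well, but their calls ended under several alternatives, at adjusted p up to 0.259 and 0.0895.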

How the data were processed

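The authors deposited 1 table with a whole-number count and an FPKM value for each gene and library, per the file headers. Counts carry no scaling, judged by their values. Dividing a count by its library total and by 1 fixed length per gene gave the deposited FPKM (checked on the 9871 genes that reach 200 counts in each library). Bowtie2, RSEM 1.3.1 and DESeq2 1.4.5 are named, without roles, in the submitters' processing notes. The sources used here do not give genome build, strand setting or handling of reads with several matches. RSEM estimates are not whole, so the counts were rounded or made another way before deposit.

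Groups and numbers come from the sample titles. Genes passing edgeR's filterByExpr (count minimum 10, total minimum 15) were scaled by TMM. The two-sided quasi-likelihood test of edgeR 4.0.16 (robust, under R 4.3.3) had the group as its only term, with Benjamini-Hochberg adjustment over all genes tested and a threshold of 0.05. CPM use the TMM factor. SE is the log2 fold change over the root of F. The test was checked on simulated data. Alternatives used DESeq2 1.42.0 and limma 3.58.1. Profiles were compared on log2 CPM (prior count 2).

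The members and lists were chosen with earlier results of these data known. All 10 members were named whatever their values, as were up to 4 genes per list with the smallest adjusted p among those that changed, and the 3 nearest profiles among genes at a mean log2 CPM of 1 or more with an informative symbol. March5 was read as Marchf5 from the RefSeq gene table, and Hrk, E2f1 and Cldn5 were not analysed here. A few genes and 1 motif that these rules name are not reported here.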

Additional observations from a re-analysis of the deposited data

Results flagged for a closer look

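In 16 of 152 groups of 6 values checked, the highest library lay apart from the other 5 by more than 0.625 of the group's range. With both ends counted, chance flags about 1 in 20 groups of independent values with a normal spread. These groups share libraries, and some share genes, so that rate is only a guide. None of the flagged groups was one of the 10 BCL2 family genes or of the ratios between them. NMDA 6 was the highest NMDA library for Jun (100.8 CPM, the next at 86.1), Fbxw7 (104.6, the next at 92.4), Csf3r (25.1, the next at 9.81), S100a9 (13.7, the next at 2.86), Slc1a3 (294, the next at 175) and the sum of neutrophil markers (51.0, the next at 20.1). PBS 5 was the highest PBS library for Cd68 (2.18 CPM, the next at 1.05), S100a9 (0.873, the next at 0.198), Cd3e (0.516, the next at 0.124) and the sums of neutrophil (5.51, the next at 2.66), lymphocyte (4.88, the next at 3.37) and pigment epithelium markers (297, the next at 99.6). PBS 3 was the highest PBS library for Dynll2 (395.5 CPM, the next at 364) and Lrat (4.58, the next at 2.25). NMDA 1 was the highest NMDA library for Rom1 (1788 CPM, the next at 1415), and NMDA 3 for the sum of pigment epithelium markers (389, the next at 59.6).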

How the results depend on the processing

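The calls of the 6 BCL2 family genes that changed held in all 141 alternative values that could be computed for them over 24 alternatives. Leaving out single libraries gave 6 to 7 members called (5 to 6 higher, 1 lower) and 5287 to 6629 genes called in all. With at least 10 CPM in 6 libraries 3 members were called, 2 of them higher, since Bak1, Bcl2a1 and Bid among others were then not tested. Bcl2 passed without NMDA 1, with library size only (0.41), with limma voom (0.38) and without NMDA 1 and NMDA 3 (0.36), an alternative chosen after seeing the data, as was that without PBS 5 and NMDA 3. Near 0, the sign of Bcl2l1 turned with library size only (0.0186), log2(FPKM + 1) (0.0152) and log2(FPKM + 0.1) (0.0173). That of Bcl2l11 turned with library size only (0.0166), limma voom (0.0123), log2(FPKM + 1) (0.0066) and log2(FPKM + 0.1) (0.01), and leaving out single libraries gave -0.0768 to 0.0261, positive without NMDA 5 or PBS 1. The Bax to Bcl2 difference was -0.0356 without NMDA 1 and at most 0.1417 when single libraries were left out. The cause was not tested. Scaling by library size only called 64.6% of changed genes higher, against 53.8% with TMM (log2(FPKM + 1) 63.9%, log2(FPKM + 0.1) 64.1%). With log2(FPKM + 1), log2 fold changes of low genes shrank, to 0.53 for Bcl2l12, 0.42 for Casp8 and 1.21 for Spi1. The labels do not say whether equal numbers mark a shared litter or day. The correlation of deviations between libraries with the same number ran from -0.19 to 0.15, and in 0 of 6 was the own number the best match. With the replicate number as a block 6 members and 5593 genes were called.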

Other observations

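Markers of other cell types of the eye were measured beside the family. Of 8 amacrine cell markers, 8 fell (median log2 fold change -0.51), against 17.5% of all genes. Among them were Th, the dopamine synthesis gene (-1.50), Gad2 and Gad1, GABA synthesis genes (-0.53 and -0.35), and Slc32a1, the vesicular transporter gene of inhibitory neurons (-0.50). Of 8 markers of Müller glia, the support cells of the retina, 5 fell and 1 rose (median -0.60), against 17.5% and 20.4% of all genes. Rlbp1, a retinoid-binding protein gene, was at -1.14, Dkk3, a secreted protein gene, at -0.71, Glul, the glutamine synthetase gene, at -1.05 and Slc1a3, a glutamate transporter gene, at -0.86.

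Pecam1, an adhesion gene of endothelial cells, rose (0.47), 1 of 5 tested endothelial markers to do so, against 20.4% of all genes. That count was 3 without PBS 5 or with library size only, and 2 without NMDA 3 or NMDA 5. Among 9 lens crystallin genes with 8 symbols, the lowest edgeR adjusted p was 0.257, that of 1 of the 2 genes with the symbol Cryga (ENSRNOG00000046343, log2 fold change -1.06). The lens sum ran from 64.7 to 2708 CPM in NMDA retinas and from 499 to 2527 CPM in PBS retinas. Of 6 pigment epithelium markers 2 fell, against 17.5% of all genes, with a median log2 fold change of -0.03. Rpe65, a visual cycle gene, and Lrat, a retinoid enzyme gene, fell (-1.67 and -0.98). The call of Lrat ended without NMDA 2, NMDA 4, NMDA 5 or PBS 3 (edgeR adjusted p up to 0.0712). Best1, Tyr, Pmel and Tyrp1 did not pass (0.05, 0.11, 0.08 and -0.12), and the sums of all 6 overlapped between groups.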
